A study of Mus musculus with 8 samples.

Results

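The binding sites described here are the intergenic day 4 Oct6 peaks that lie near a gene. A peak was taken when the deposited score was below 20, its centre lay outside every annotated protein-coding gene, and the nearest protein-coding transcript start was more than 1 kb and at most 100 kb away. Of 7979 peaks, 1481 (18.6%) met that rule. They had 1251 distinct nearest genes, of which 1118 were found in the expression table. The rule used the score and the position of a peak and no expression value. Nearest means nearest start, and no measurement here ties a peak to the gene it may act on.

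The study used R1 and R1/E mouse embryonic stem cells, kept on feeder cells before they were differentiated. RNA was sequenced from embryoid bodies, floating aggregates of differentiating cells, at days 2, 4 and 6. At each day 1 library came from a culture labelled control and 1 from a culture in which doxycycline induced overexpression of Oct6, which makes 6 libraries. A chromatin immunoprecipitation (ChIP) library for Oct6 and an input library came from cells overexpressing Oct6, labelled as day 4 of neural differentiation. Sample titles and treatment labels name doxycycline for the induced cultures alone, while the treatment protocol names it without saying which arm received it. The RNA library titles begin with fbs, unexplained, although the growth protocol is one without serum, which leaves their culture medium uncertain. The labels leave unstated whether the control cells also received doxycycline and whether they carry the transgene. Effects of Oct6, of doxycycline and of the line therefore cannot be told apart. There was 1 library per arm and day, so no difference within a day has a replicate check.

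Oct6, the product of Pou3f1, is a class III POU transcription factor of the primed epiblast, the early neural plate and myelinating glia. A POU protein holds DNA with a POU-specific domain and a homeodomain joined by a flexible linker. A single molecule can cover the octamer ATGCAAAT, and a pair of molecules can sit on palindromes built from an ATGNAT hexamer facing an ATNCAT hexamer, of which MORE, the word ATGCAT written 2 times in succession, is the classical form. Sites away from promoters are where many factors of this family act as regulators of developmental genes in stem cells and neural progenitors.

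These 4 peaks, chosen after the sequences were seen, are shown because they carry the forms of the hexamer pair or a lone hexamer, each as the plus strand of the mm9 reference from 5′ to 3′. Capitals mark octamers, facing hexamer pairs with 0 to 2 bases between them, and lone ATGCAT hexamers. The Ebf2 peak (chr14:67788527-67788659, 63.5 kb upstream of the start) held the MORE palindrome, with no base between the hexamers. The Adamdec1 peak (chr14:69178962-69179094, 21.1 kb downstream) had 1 base between the hexamers and the Nmu peak (chr5:76798769-76798901, 6.02 kb upstream) had 2. The peak of Pou3f1 itself (chr4:124341590-124341722, 6.76 kb downstream) held a lone hexamer and neither an octamer nor a pair.
Ebf2 peak: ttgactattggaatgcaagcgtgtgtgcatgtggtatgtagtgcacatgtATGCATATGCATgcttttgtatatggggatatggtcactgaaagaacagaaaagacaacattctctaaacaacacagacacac
Adamdec1 peak: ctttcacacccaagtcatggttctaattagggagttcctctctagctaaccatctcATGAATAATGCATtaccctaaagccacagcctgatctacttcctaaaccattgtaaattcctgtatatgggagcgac
Nmu peak: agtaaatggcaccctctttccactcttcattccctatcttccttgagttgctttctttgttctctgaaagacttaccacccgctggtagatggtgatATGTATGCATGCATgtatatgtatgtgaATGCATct
Pou3f1 peak: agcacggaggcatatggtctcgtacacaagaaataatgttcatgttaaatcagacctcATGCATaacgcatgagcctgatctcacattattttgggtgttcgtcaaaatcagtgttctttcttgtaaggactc

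A further 5 peaks, also picked for the words they hold, show other contexts. Most peaks of the rule hold none of the words marked here. The Dusp6 peak (chr10:98724059-98724191, 1.74 kb upstream) and the Sox9 peak (chr11:112672504-112672636, 26.5 kb downstream) held an octamer. In the Hdac9 peak (chr12:35216789-35216921, 3.10 kb upstream) the pair overlapped the end of a tandem repeat, a run of at least 24 bases with a period of 2 to 6. The Stmn1 peak (chr4:134034061-134034193, 8.47 kb downstream) held a CTCF core word (CCANNA followed at once by GGGGGC) on the other strand, and the C1ql2 peak (chr1:122228562-122228694, 8.53 kb upstream) held a REST core word (AGCACC and GGACAG with 2 bases between). CTCF is an architectural protein of chromatin and REST a repressor of neuronal genes. In these sequences capitals also mark those core words.
Dusp6 peak: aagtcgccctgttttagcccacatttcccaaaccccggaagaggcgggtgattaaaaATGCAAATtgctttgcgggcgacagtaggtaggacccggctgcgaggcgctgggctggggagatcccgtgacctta
Sox9 peak: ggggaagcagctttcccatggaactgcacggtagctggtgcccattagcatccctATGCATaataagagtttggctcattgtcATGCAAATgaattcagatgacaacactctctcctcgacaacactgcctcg
Hdac9 peak: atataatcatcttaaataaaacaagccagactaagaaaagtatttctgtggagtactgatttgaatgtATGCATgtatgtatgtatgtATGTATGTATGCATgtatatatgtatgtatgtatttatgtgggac
Stmn1 peak: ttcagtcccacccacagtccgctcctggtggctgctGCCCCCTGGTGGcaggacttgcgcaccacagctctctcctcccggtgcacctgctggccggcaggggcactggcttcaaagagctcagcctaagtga
C1ql2 peak: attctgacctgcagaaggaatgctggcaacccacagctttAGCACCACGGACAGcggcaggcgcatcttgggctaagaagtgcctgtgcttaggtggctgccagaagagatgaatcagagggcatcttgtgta

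The peaks lay mostly upstream of the nearest start. Of 1481, 986 (66.6%, 95% Wilson interval 64.1 to 68.9) were upstream and 495 downstream. A downstream peak has to lie past the whole gene, because peaks inside genes are left out, so the sides are not equal in the sequence they can come from. The distance had a median of 28.6 kb with quartiles of 10.1 and 56.1 kb, and the medians were 23.1 kb upstream and 39.1 kb downstream. By distance, 366 peaks were 1 to 10 kb away, 320 were 10 to 25 kb, 350 were 25 to 50 kb and 445 were 50 to 100 kb. The closest peak taken lay 1005 bp from a start and the closest one left out 995 bp. At the far limit the values were 99746 bp inside and 100033 bp outside.

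**Figure D1:**
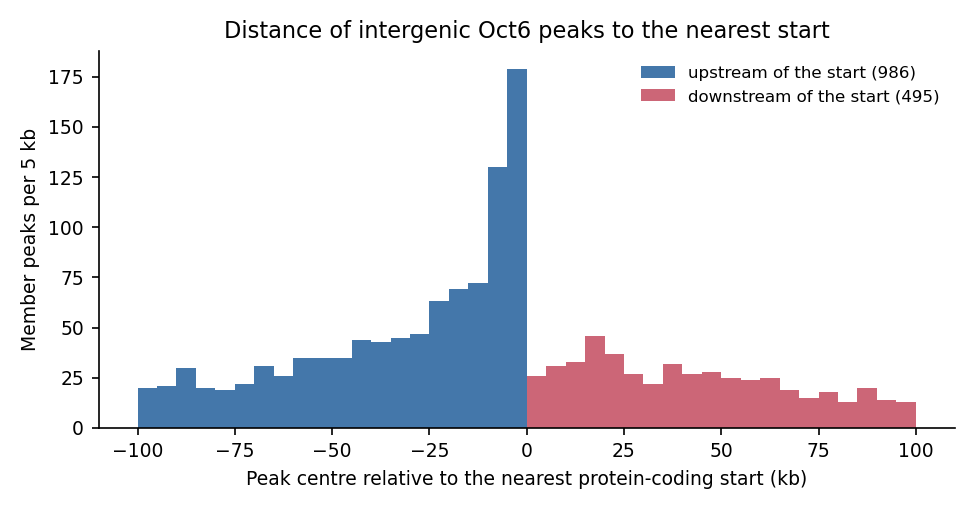
Number of intergenic peaks per 5 kb (y axis) against the distance of the peak centre from the nearest protein-coding start in kb (x axis), upstream to the left and downstream to the right. The 986 upstream peaks pile up next to the start and the 495 downstream peaks spread more evenly.

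Scores took few values. All were below 20 by the rule, which left out 71 intergenic peaks within 100 kb with a score of 20 or more. All peaks were 133 bp wide, and the scores sat on steps of 1.27, with 10.1 equal to 8 steps. At 10.1 there were 601 peaks (40.6%), at 11.4 there were 386 and at 12.7 there were 202, against 18 at 8.9. The highest score inside the rule, 19.0, was shared by 18 peaks, and the next value, 20.3, was held by 17 intergenic peaks within 100 kb that the rule leaves out. Most genes had 1 such peak (1064 of 1251), 154 had 2, 26 had 3, 4 had 4 and 3 had 5. Neighbouring peaks were under 1 kb apart in 36 cases.

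Peaks were unevenly spread over the chromosomes. Chromosome 1 held 184 of them (0.93 per Mb) and chromosome 14 held 112 (0.89 per Mb), while chromosome 16 held 35 (0.36 per Mb) and the X chromosome 16 (0.10 per Mb). The whole peak list had 5.18 peaks per Mb on chromosome 14, 4.76 on chromosome 1, 2.78 on chromosome 16 and 0.29 on the X chromosome. Copy number of the chromosomes was not tested.

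POU words were several times as frequent in the peaks as in their flanks, the sequences of equal length (2962 in all) whose outer end lies 500 bp from each peak edge. Every word was searched as exact letters on both strands. The octamer ATGCAAAT was in 79 peaks (5.33%, interval 4.30 to 6.60) and in 1.45% of flanks. The hexamer ATGCAT was in 281 peaks (19.0%) and 5.47% of flanks, a count that includes hexamers inside pairs. Facing hexamers with 0 to 2 bases between them were in 119 peaks (8.04%) and 0.405% of flanks. MORE, a special case of the pair with no base between, was in 10 peaks (0.675%) and in 0 of the flanks, which allows up to 0.130%. The shuffled octamer AATGTACA was in 0.810% of peaks and 0.608% of flanks, and the Sox word CATTGT in 7.09% and 6.89%.

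The spacing of the hexamers was uneven. The pair of ATGNAT and ATNCAT with no base between was in 47 peaks (3.17%), 1 base between in 15 (1.01%) and 2 bases in 59 (3.98%). Among wider spacings the even ones were the frequent ones: 4, 6, 8 and 10 bases gave 1.69%, 3.71%, 1.82% and 3.04% of peaks, while 3, 5, 7 and 9 gave 0.135%, 0.540%, 0.270% and 0.270%. A peak can hold more than 1 spacing. Tandem repeats, which can produce such words in series, were in 59 peaks (3.98%) and 3.78% of flanks, and 17 of the 119 peaks with a close pair held one. Only exact repeats were counted, so interrupted ones remain among the other peaks. In the 1422 peaks without a tandem repeat the shares were 2.95% for 6 bases, 2.18% for 10 bases and 7.17% for 0 to 2 bases, against 0.351% of such flanks for the last.

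**Figure D2:**
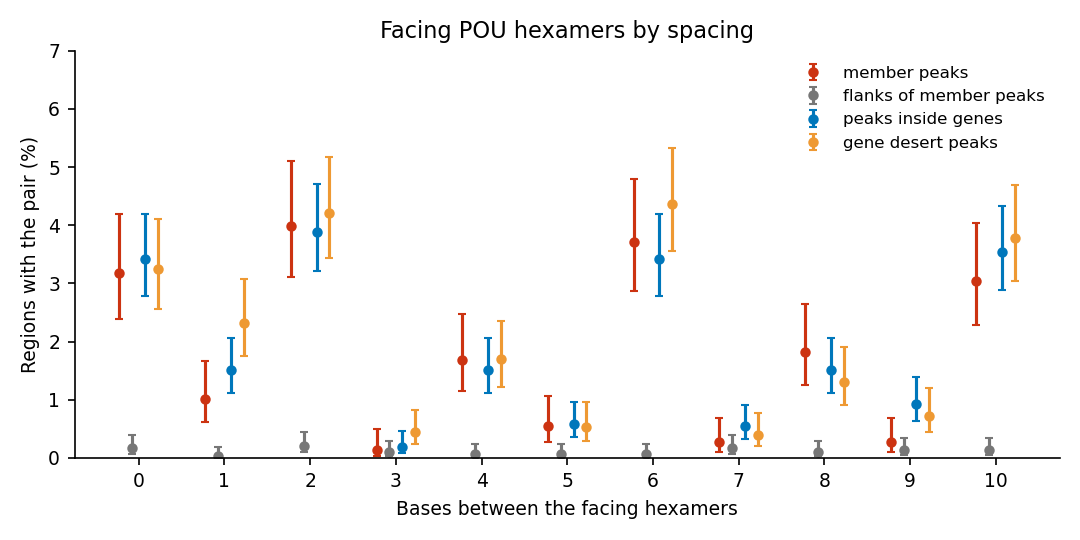
Share of regions in percent (y axis) that hold facing ATGNAT hexamers by the number of bases between them (x axis), for the intergenic peaks within 100 kb (member peaks), their flanks, peaks inside genes and peaks over 100 kb from a start (gene desert), with 95% Wilson intervals. Spacings of 0, 2, 6 and 10 bases are each in at least 3.04% of the member peaks, and every spacing is in at most 0.203% of flanks.

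Close pairs sat at the centre of the peak. The median distance of the pair from the peak centre was 13.5 bp, and in 76.5% of the 119 peaks it lay in the central 50% of the peak. For the octamer the median distance was 28.5 bp and 57.0% were central. Peaks of higher score held close pairs more often: 4.85% of peaks with a score of 8.9 or 10.1, 9.86% of those with 11.4 or 12.7, and 11.3% of those with 13.9 to 19.0. Peaks with a score of 20 or more, outside the rule, held them in 41.3% (264 placed peaks).

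**Figure D3:**
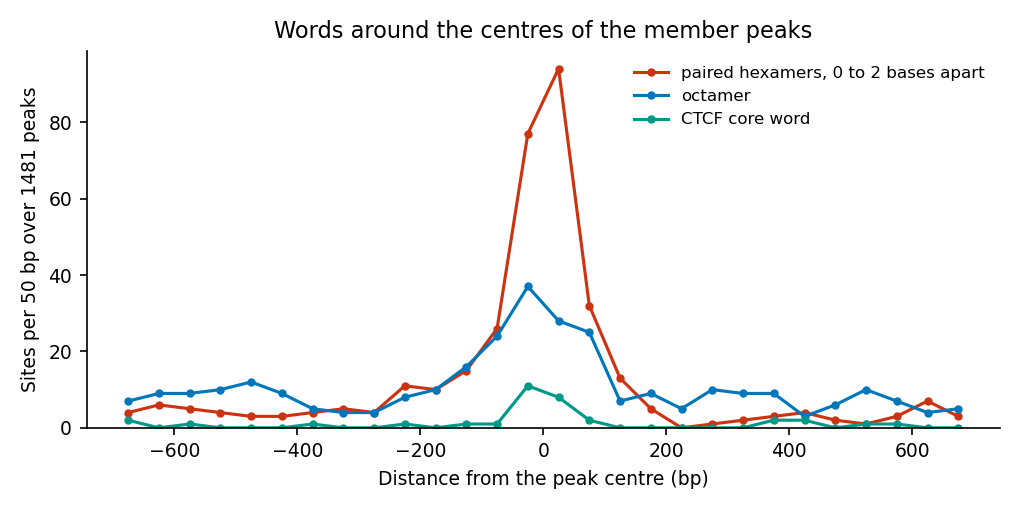
Number of sites per 50 bp over the 1481 intergenic peaks within 100 kb (y axis) against the distance from the peak centre in bp (x axis), for close hexamer pairs, the octamer and the CTCF core word. Sites of all 3 words are most frequent within 50 bp of the centre, and pairs reach the highest count.

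Among peak classes, the intergenic peaks near genes held close pairs about as often as peaks inside genes and in gene deserts, and more often than start site peaks. Close pairs were in 8.67% of peaks inside genes (2572), 9.31% of gene desert peaks (2063) and 0.631% of peaks within 1 kb of a start (1585). Start site peaks also held the octamer in 0.946%. Gene desert peaks held the hexamer ATGCAT more often, in 25.7% (interval 23.9 to 27.6, against 17.1 to 21.0 in the intergenic peaks near genes), and the pair with 1 base between in 2.33% (1.76 to 3.07, against 0.615 to 1.66). The GC content of the intergenic peaks was 43.4% ± 10.4 (SD over 1481 peaks), against 42.6% in their flanks, 60.6% in start site peaks and 36.5% in gene desert peaks. Peaks 1 to 10 kb from a start had 46.7% and those 50 to 100 kb away 41.0%. The CTCF core word was in 19 of the intergenic peaks (1.28%), 0.0675% of flanks and 0 of the gene desert peaks, which allows up to 0.186% there (Wilson interval). Its shares in start site peaks and in peaks inside genes are not given here. Base composition differs between the classes and its part in the word counts was not tested. All intervals cover counting error only.

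The nearest genes were expressed more often than genes at large and at lower median levels. An FPKM, a fragment count scaled to transcript length and library size, of 1 or more in at least 1 library was found for 807 of the 1118 matched genes (72.2%), against 60.6% of the 22558 genes of the table. Of the rest, 311 were under 1 in every library and 60 of those were listed at 0 throughout. Genes that reached 1 FPKM in either day 4 library had medians of 8.34 FPKM in the control library and 10.4 in the induced library, beside 10.1 and 11.2 for all such genes. Markers of stem cells and epiblast (Pou5f1, Nanog, Utf1 and Zfp42) summed to 1365 FPKM in the control and 696 in the induced library at day 2, and to 189 and 233 at day 6.

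More of the nearest genes were higher in the induced cultures, and few were lower. A gene counted as higher or lower when 1 of the libraries had an FPKM of at least 1 and log2(FPKM + 1) differed by at least 1, a scale that understates the change of weakly expressed genes. At day 2, 160 of 744 genes were higher (21.5%, interval 18.7 to 24.6; all genes 9.72%) and 10 lower (1.34%; all genes 1.83%). At day 4, 125 of 751 were higher (16.6%, interval 14.1 to 19.5; all genes 6.09%) and 13 lower (1.73%; all genes 2.11%). At day 6, 50 of 751 were higher (6.66%, interval 5.09 to 8.67; all genes 3.37%) and 11 lower (1.46%; all genes 2.1%). The share of lower genes was near the background on every day. A pseudocount of 0.1 gave 10.4% higher at day 6, and lower shares of 2.69% (day 2) and 3.20% (day 6). The shares of all genes under that pseudocount are not given here. The median difference was 0.36, 0.21 and 0.10 at days 2, 4 and 6, against 0.17, 0.10 and 0.06 for all genes. In RNA from whole embryoid bodies, fewer cells of a type and less RNA per cell cannot be told apart.

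At least 2-fold higher on all 3 days were 24 genes (2.97% of 807, against 1.03% of all genes). They include Pou3f1, the induced gene. The count of genes at least 2-fold lower on all 3 days was 0 (all genes 0.0732%). Over the 3 days limma, with day as a block, gave 236 higher and 33 lower genes at an unadjusted p under 0.05. Those were 29.2% and 4.09% of 807, against 16.3% and 4.72% of all genes. Without day 4 the counts of nearest genes were 116 and 11, and the share of all genes in that setting is not given here. After Benjamini-Hochberg adjustment over 13661 genes, 0 of the nearest genes passed 0.05 in either direction, against 2 higher (0.0146%) and 1 lower (0.00732%) among all genes. The test has 2 residual degrees of freedom, and what it measures is the spread of the difference between days, not between repeated cultures. Among the nearest genes the smallest adjusted p in limma was 0.0637, for Epha3.

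Genes near peaks inside genes or in gene deserts had shares as large or larger. Genes nearest to a peak inside a gene were higher in 21.4%, 17.0% and 8.59% at days 2, 4 and 6, and genes nearest to a gene desert peak in 29.7%, 27.9% and 10%. Genes nearest to a start site peak were higher in 10.3%, 5.90% and 3.17%, with intervals below those of the intergenic peaks on every day. Genes nearest to no peak were at 7.66%, 4.20% and 2.71%. A gene can be in several classes: 424 of the 1118 had a peak of another class too. Those were higher in 26.5%, 23.2% and 7.74%, and the 694 without one in 17.9%, 11.9% and 5.90%. Of genes named below, Epha3, Efna5, Ebf2, Fabp7, Neurod1, Cdh11, C1ql2, Hdac9, Pam and Prkg2 were among the 424. So were Pou3f1, Lef1, Postn, Emcn, Dkk2, Inhbb, Spry2, Eomes and Tpt1. This list does not cover every gene named. Peak numbers given for a gene count its intergenic peaks of this rule alone.

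**Figure D4:**
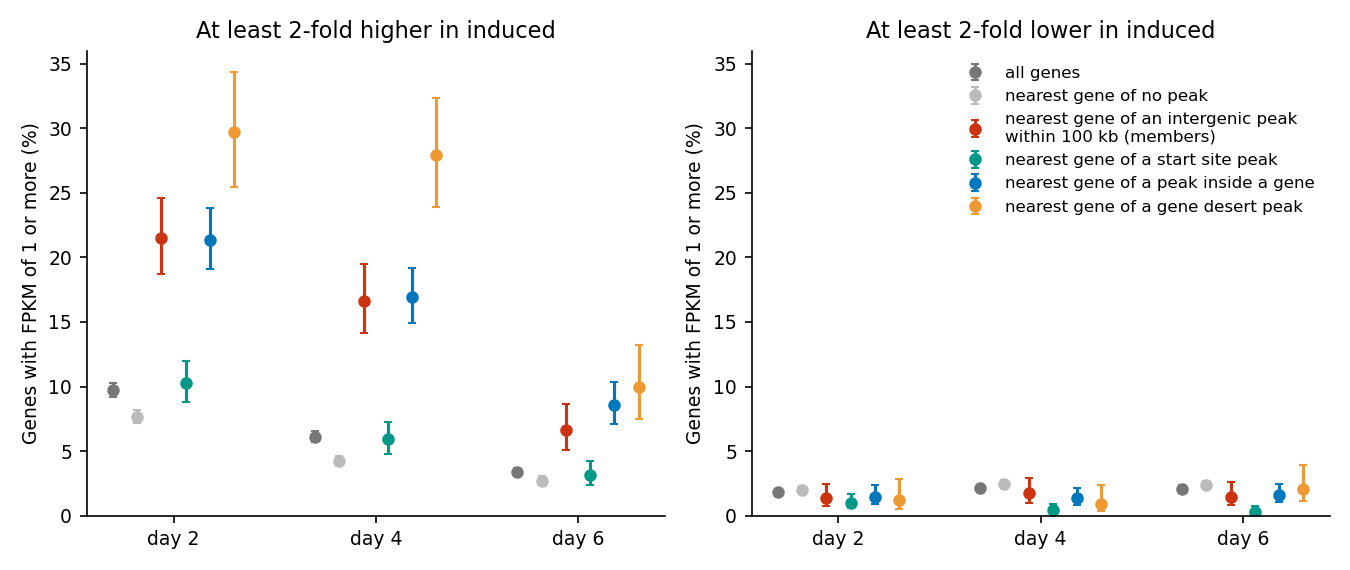
Share of genes in percent (y axis) that are at least 2-fold higher (left) or lower (right) in the induced library by day (x axis), for all genes and for genes nearest to each class of peak, with 95% Wilson intervals that cover counting error only. Genes nearest to intergenic peaks within 100 kb are higher in 21.5%, 16.6% and 6.66% at days 2, 4 and 6, above all genes on each day, while their lower shares stay under 2%.

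Within the intergenic peaks, near and far peaks went with similar shares. Genes with the closest peak 1 to 10 kb away were higher in 22.6% at day 2 and 15.2% at day 4, and genes with it 50 to 100 kb away in 25.3% and 16.0%. Genes with the peak upstream were higher in 23.4% at day 2 and those with it downstream in 16.5%. Genes with 2 or more such peaks were higher in 29.1% at day 2 and genes with 1 peak in 20.2%. A close hexamer pair went with 30.3% at day 2 and 21.0% at day 4 (66 and 62 genes), beside 20.6% and 16.3% without one, and the octamer with 20% and 7.5% (40 genes). The intervals of these pairs of shares overlapped, and the differences between them were not tested.

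The gene for Oct6 was itself a nearest gene. Pou3f1 was at 64.3, 10.1 and 4.76 FPKM in the control libraries of days 2, 4 and 6, and at 312, 222 and 86.8 in the induced libraries. On each day the induced library had the higher level, as its label says, and the level was lower at each later day in both arms. Whether these values count transgene transcripts beside the endogenous ones of Pou3f1 is not stated. Its adjusted p in limma was 0.0885, with a mean log2 difference of 3.51 (interval 2.47 to 4.54). It also had a start site peak. Of the other class III POU genes, Pou3f4, a regulator of neural and inner ear development, was at 0.198, 0.301 and 0.555 FPKM in the control libraries and at 1.34, 2.86 and 5.0 in the induced ones. Pou3f2 stayed under 1 FPKM in every library.

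Of 40 neural progenitor genes, 8 were nearest genes (Pou3f1, Pou3f2, Pou3f4, Sox21, Fabp7, En1, Lhx2 and Msi1), and 7 of those reached 1 FPKM. Among all genes of the table, 4.96% were nearest genes. At day 4, 6 of 7 were higher, and at days 2 and 6, 4 and 3 of 7, with 0 lower. For the whole list the counts were 11 of 26, 18 of 29 and 10 of 35. Pou3f1, the gene that was induced, is among the higher genes of each day in both sets of counts. Its part in them was set by the design. Fabp7, the brain fatty acid binding protein of radial glia, was at 0.418, 2.03 and 2.31 FPKM in the control libraries of days 2, 4 and 6 and at 4.21, 16.6 and 58.2 in the induced ones. The gap between the arms was wider at each later day. Sox21, a Sox factor of neural progenitors, took the opposite course, with 22.6, 9.64 and 4.05 FPKM in the induced libraries against 0.0853, 0.422 and 3.05 in the control. By day 6 the arms were close for Sox21. Msi1, an RNA-binding protein of neural stem cells, differed by 0.31, -0.14 and 0.42 on the log2 scale and was not counted on any day.

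Of 40 neuron genes, 7 were nearest genes, of which 3 of 5 tested were higher at day 2, 3 of 5 at day 4 and 2 of 4 at day 6. Whole-list counts were 15 of 25, 17 of 26 and 26 of 33. Cntn2, an axonal adhesion protein, was at 39.8, 8.78 and 5.52 FPKM in the induced libraries of days 2, 4 and 6 and at 0.952, 2.02 and 0.466 in the control. Neurod1, a proneural factor, reached 22.7 FPKM in the induced day 2 library against 4.19 in the control, and both arms were under 0.5 at day 6 (0.430 and 0.420). Ebf2, a factor of differentiating neurons, had MORE in 1 of its 2 intergenic peaks and was also nearest to a peak inside a gene. Ebf2 was at 8.11, 1.05 and 1.99 FPKM in the induced libraries and at 0.0494, 0.0188 and 1.96 in the control. For both factors the gap between the arms was widest at day 2 and 0.01 on the log2 scale at day 6. The summed FPKM of 4 neuron markers (Tubb3, Dcx, Elavl3 and Ncam1) was 17.5, 4.10 and 12.98 in the control libraries and 61.5, 38.1 and 74.8 in the induced ones. The part of cell composition in these differences was not tested.

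Axon guidance and adhesion genes gave 9 nearest genes of 47. Higher were 5 of 6 at day 2, 4 of 7 at day 4 and 2 of 8 at day 6, and 0 were lower. In the whole list the counts were 25 of 33, 18 of 38 and 9 of 40. The Eph receptor gene Epha3 had the steadiest difference, with 0.0602, 0.122 and 0.107 FPKM in the control libraries of days 2, 4 and 6 and 3.67, 3.05 and 3.76 in the induced ones. Its mean log2 difference was 2.03 (95% interval 1.58 to 2.49; adjusted p in limma 0.0637). Efna5, an ephrin ligand of such receptors, had 2 intergenic peaks within 100 kb. Epha3 and Efna5 were also nearest to peaks inside genes and in gene deserts. Efna5 was at 7.88, 9.07 and 7.08 FPKM in the induced libraries and at 0.400, 2.08 and 7.16 in the control. Cdh11, a cadherin of mesenchyme and neural cells, was at 42.1, 33.1 and 39.1 FPKM in the induced libraries and at 1.25, 8.0 and 25.2 in the control. In both genes the arms were closest at day 6.

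Other genes with large differences encode secreted peptides, receptors and signalling enzymes. C1ql2, a secreted C1q-like protein of synapses, was at 25.2, 23.8 and 4.52 FPKM in the induced libraries of days 2, 4 and 6 and at 0.0135, 0.0340 and 0.391 in the control. Nmu, the neuropeptide neuromedin U, was at 2.65, 29.8 and 3.48 FPKM in the induced libraries and at 0.141 in the control of day 2, and was listed at 0 at days 4 and 6. Hdac9, a class IIa histone deacetylase, was at 8.52, 13.3 and 5.71 FPKM against 0.298, 0.243 and 0.601, with an adjusted p in limma of 0.0838. These genes were far apart between the arms on all 3 days. Igfbpl1, an IGF-binding protein homologue, was at 53.2, 16.9 and 15.6 FPKM in the induced libraries and at 1.39, 1.88 and 4.86 in the control. Mc4r, a melanocortin receptor, was under 0.1 FPKM in all 3 control libraries and reached 12.6 in the induced library of day 4. Bves, a membrane protein of cell adhesion, was at 32.9 FPKM in that library against 0.863 in its control.

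Further genes higher on all 3 days included Prkg2, a cGMP-dependent kinase, with a mean log2 difference of 2.44 (adjusted p in limma 0.0746), and Pam, the enzyme that amidates neuropeptides, at 45.8, 63.6 and 41.2 FPKM in the induced libraries against 3.28, 9.28 and 17.1. Spag9, a scaffold of JNK signalling, had a small and even difference of 1.21, 1.06 and 1.05 on the log2 scale at days 2, 4 and 6. Npy1r, a neuropeptide Y receptor, and Dlx6 and Dach1, developmental transcription factors, were also among the 24. Spag9 and these 3 were named after their values were seen.

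**Figure D5:**
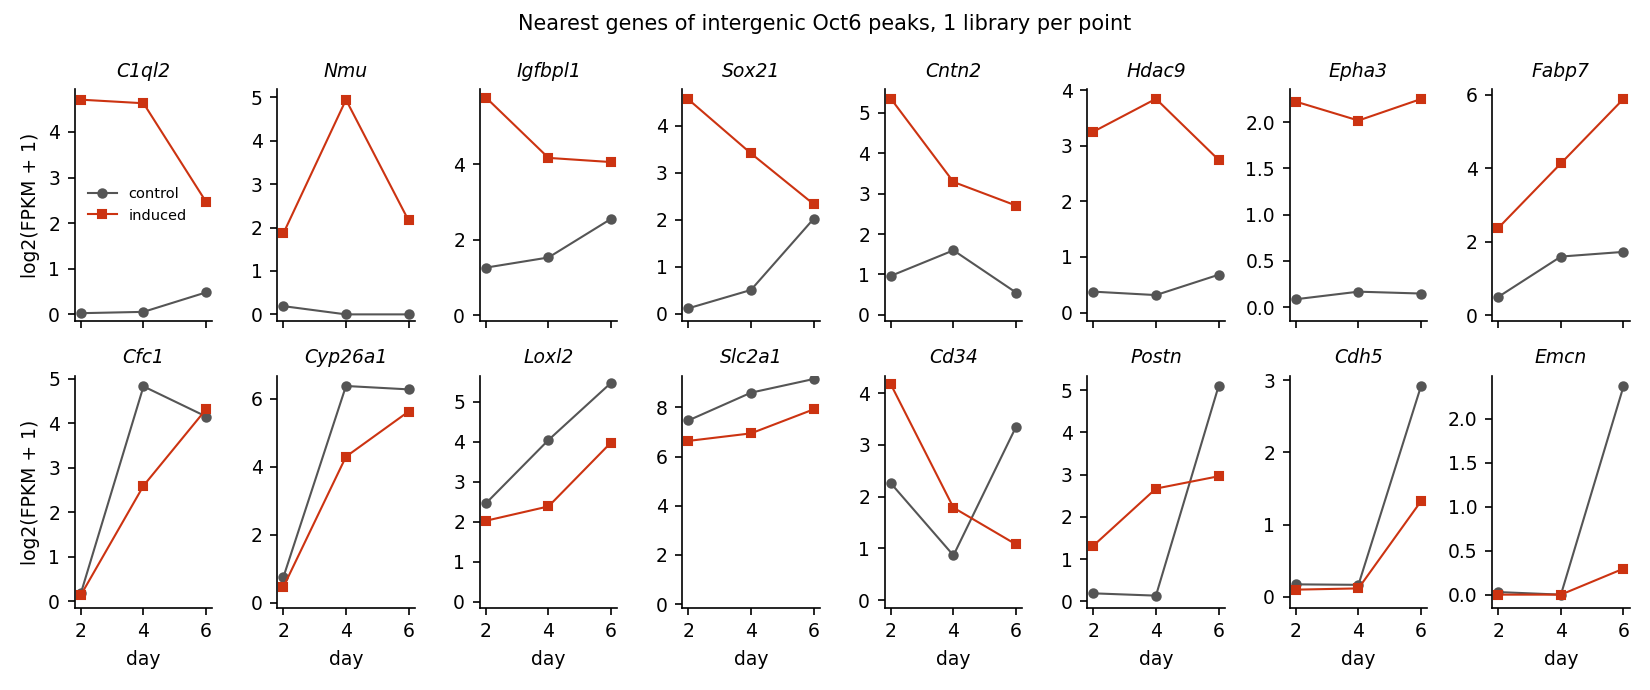
log2(FPKM + 1) (y axis) by day (x axis) in the control (circles) and induced (squares) libraries for 16 nearest genes, 1 library per point with y axes that differ between panels. C1ql2, Nmu, Igfbpl1, Cntn2, Hdac9, Epha3 and Fabp7 are higher in the induced library on all 3 days, while Cd34, Postn, Cdh5 and Emcn are lower at day 6.

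Lower genes were few, and the 6 with the largest differences at day 4 were Cfc1, Cyp26a1, Loxl2, Slc2a1, Arl4d and Fgf10. Cfc1, a co-receptor for Nodal, was at 27.5 FPKM in the control and 5.05 in the induced library at day 4, and at 16.8 and 18.9 at day 6. Cyp26a1, which degrades retinoic acid, was at 82.0 and 18.7 FPKM at day 4 and at 76.4 and 48.3 at day 6. In both genes the gap was smaller at day 6 than at day 4. Fgf10, a growth factor, was at 10.9 and 3.87 FPKM at day 4 and at 11.8 and 12.9 at day 6. Arl4d, a small GTPase, was at 21.3 and 7.74 FPKM at day 4. Slc2a1, the glucose transporter GLUT1, was at 177, 387 and 570 FPKM in the control libraries and at 98.7, 122 and 241 in the induced ones, lower on each day and by 2-fold on 2 of them (adjusted p in limma 0.0950). Loxl2, a lysyl oxidase of the matrix, was at 4.51, 15.5 and 43.5 FPKM in the control and at 3.07, 4.23 and 14.8 in the induced libraries. At day 4 the marker sums were 54.0 FPKM in the control and 1.10 in the induced library for visceral endoderm, 282 and 181 for mesoderm (T, Mixl1, Mesp1 and Kdr), and 12.9 and 2.28 for cardiomyocytes. Their part in the lower genes of day 4 was not tested.

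At day 2 the lowest differences were those of Lef1, the nuclear effector of Wnt signalling (16.8 FPKM in control, 3.75 in induced), Tnfsf11, the ligand RANKL (7.51 and 2.18), and Cdh3, P-cadherin (6.67 and 2.06). Cdh3 stayed lower on the other days, with differences of -0.92 and -0.99, just short of 2-fold. At day 6 they were Cd34 (9.17 and 1.11), Postn, a matrix protein of mesenchyme (33.0 and 6.79), and Emcn, endomucin of endothelium (4.16 and 0.227). Cdh5, the endothelial VE-cadherin, was at 6.55 FPKM in the control and 1.51 in the induced library of day 6, and under 0.2 in the other 4 libraries. Markers of blood (Hbb-bh1 and Hba-x) summed to 1365 FPKM in the control and 147 in the induced library at day 6. Markers of cardiomyocytes (Myl7, Tnnt2 and Actc1) summed to 143 and 6.05 and those of visceral endoderm (Afp, Ttr, Apoa1 and Cubn) to 119 and 6.18. Those of mesoderm summed to 68.8 and 62.8, and endothelial markers were not summed. The sums for blood, cardiomyocytes and visceral endoderm were lower at day 6 as these genes were, and their part in the lower genes was not tested.

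Pathway lists held few nearest genes each. Over 16 lists, 59 of 416 measured genes were nearest genes (4.96% of the whole table was). Of these, 20 of 46 were higher at day 2 (43.5%), 15 of 48 at day 4 (31.3%) and 9 of 52 at day 6 (17.3%), beside 30.1%, 27.5% and 20.7% for the whole lists. Lower were 3, 2 and 0, beside 32 of 292, 31 of 324 and 25 of 376 for the whole lists. Pou3f1, the induced gene, is among the higher ones on each day, in the nearest genes and in the whole lists. Of 28 Hox and Cdx genes, 0 were nearest genes. Endoderm gave 1 of 20, Cxcr4, and primitive streak and mesoderm 2 of 24, Eomes and Evx1, with 0 of them past 2-fold on any day. In the whole endoderm list 5 of 12, 11 of 20 and 8 of 20 were lower at days 2, 4 and 6, and in that of streak and mesoderm 1 of 10, 6 of 18 and 6 of 22. Of 35 BMP and TGF-beta genes 5 were nearest genes, and Smad5 and Smad6, a signal transducer and an inhibitor, were higher at day 2 (30.3 FPKM against 10.01, and 5.51 against 0.975), while Inhbb was lower (1.05 against 3.29). Of 52 Wnt genes 6 were nearest genes. The secreted Wnt modulators Dkk2 and Dkk3 were higher at day 2 (1.36 FPKM against 0.0400, and 3.30 against 0.772), and Lef1 was lower. Of 32 FGF and ERK genes 7 were nearest genes, with 1 of 6 higher at day 2 and 1 of 7 lower at day 4. Whole-list counts were 2 of 29 and 4 of 29. Fos was the higher one (4.90 FPKM against 0.872) and Fgf10 the lower one. The ERK feedback genes Dusp6 and Spry2 were not counted on any day, with differences of 0.10 to 0.70.

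Of genes next to the peaks of highest score or with the most peaks, some were counted and others were not. Among genes next to a peak of the top score of 19.0, Klf7, a Krüppel-like factor of neurons, was at 4.71, 3.33 and 5.09 FPKM in the control libraries of days 2, 4 and 6 and at 5.74, 4.93 and 4.38 in the induced ones. S1pr3, a sphingosine phosphate receptor with a second peak, was at 5.29 FPKM in the induced library of day 2 against 0.683 and was not counted on the other days. Adamdec1, whose top-score peak holds a hexamer pair, and Spert, whose top-score peak holds an octamer, were under 1 FPKM in every library. The highest number of peaks was 5, for Tpt1, Gm10845 and 1700084C01Rik. At day 4, 1700084C01Rik was at 2.24 FPKM in the control and 0.578 in the induced library. Gm10845 was not counted on any day. Tpt1, a ubiquitous growth-related protein, was at 488, 596 and 633 FPKM in the control libraries and at 651, 760 and 665 in the induced ones, less than 2-fold apart on each day.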

How the data were processed

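The tools named in the submitters' processing notes are TopHat 1.4.1, Cufflinks 1.3.0 with Cuffdiff, and HOMER, on mm9. Their parameters, the strand setting and the use of the input are not stated there. Genes with near-identical copies or antisense partners are therefore uncertain. The authors deposited FPKM values as 1 table of gene symbols by library, and a peak list with a score per peak, both used as deposited. The score served only to filter and describe peaks. From low FPKM steps the relative depth of the libraries ran from 0.686 to 1.48 of the control day 2 library. Absolute depth is unknown, and an exact 0 can be a failed estimate.

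Peak coordinates (1-based) were set against GENCODE models of the NCBIM37 assembly (mm9), leaving out 14 peaks of unplaced contigs. Of 1251 nearest genes, 89.4% matched a table symbol, 1 through a RefSeq synonym. Differences are of log2(FPKM + 1). limma 3.58.1 in R 4.3.3 (lmFit, eBayes with trend) was fitted on the 13661 genes that reached 1 FPKM in a library. Other steps used Python 3.11.15 with pandas 2.3.3, numpy 2.4.6, matplotlib 3.10.9 and scipy 1.17.1. The position rule, the word search and limma's fit were tested on simulated data.

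The peaks and gene lists were chosen with earlier results of these data known. The CTCF and REST words and spacings over 2 were added after the sequences were seen. Named genes were those nearest to the peaks of highest score, the 6 largest differences in each direction at day 4 and the 3 largest at days 2 and 6, the 10 largest means among genes 2-fold apart on all 3 days, those with most peaks, and up to 4 per list; not every one is given.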

Additional observations from a re-analysis of the deposited data

Results flagged for a closer look

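For 3 nearest genes the difference in log2(FPKM + 1) between the induced and the control library had opposite signs on different days, each past 2-fold. Cd34, a marker of endothelial and blood progenitors, had 1.91 at day 2 but -2.27 at day 6. For Cyr61, a secreted matrix protein, the values were 2.40 (day 2) and -1.08 (day 6). Postn differed by 1.13 at day 2, 2.53 at day 4 and -2.13 at day 6. With 1 library per arm and day, the difference between days was not tested.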

How the results depend on the processing

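Each result was recomputed under other settings, of which the restriction to genes without a peak of another class, the removal of Pou3f1 with predicted and olfactory receptor symbols, and the removal of tandem repeats were added after seeing the data. Of 808 single-gene values 769 kept their side of 2-fold, 39 crossed it and 0 changed sign while called, and of 107 summary values 27 moved. A pseudocount of 0.1 gave 30.1%, 22.6% and 10.4% higher at days 2, 4 and 6 and 2.69% and 3.20% lower at days 2 and 6. No filter on low values gave 14.3%, 11.2% and 4.47% higher. All-gene shares under another pseudocount, no filter or quantile normalisation are not given, and those of the main setting are not their background. Quantile normalisation gave 15.5% and 12.5% higher at days 2 and 4, 3.36% lower at day 2 and 57 lower genes in limma at an unadjusted p under 0.05. Higher genes were then 82.1% and 71.4% of calls at days 2 and 6, against 94.1% and 82.0%. Scaling to a common median ratio moved the median of all genes at day 2 from 0.17 to 0.03, and that of the nearest genes from 0.36 to 0.23. Genes without a peak of another class were higher in 17.9% and 11.9% at days 2 and 4 and lower in 2.97% at day 4.

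The labels carry no replicate numbers, so limma paired the libraries by day alone. Without the day block limma gave 145 higher and 8 lower genes at an unadjusted p under 0.05. Leaving out each day in turn gave 116 to 240 higher and 11 to 38 lower, the lowest values without day 4. Shares of all genes in these settings are not given, so the counts have no background beside them. After adjustment every setting gave 0 in either direction. The cause was not tested. Upstream peaks made up 57.5% with genes of every biotype and 70.2% within 50 kb. Scores at or above the median left 862 peaks, 10.3% with close pairs. The central 100 bases held the octamer in 4.05%. With 1 mismatch the shares were 33.0% for the octamer, 23.3% for pairs and 3.44% for MORE, against 16.3%, 4.52% and 0.304% of flanks.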

Other observations

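The REST core word was in 5 of the 1481 intergenic peaks and in 0 of their 2962 flanks. Its shares in the other peak classes are not given here. The 5 peaks lay nearest to Vstm2l, Kcnk9, C1ql2, Rapgef1 and Prdm11, genes named after the matches were seen. Vstm2l was at 0.22 to 0.40 FPKM in the control libraries and at 0.28 to 0.50 in the induced ones, while C1ql2 differed by 4.69, 4.58 and 1.99 on the log2 scale at days 2, 4 and 6.

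In the Sox9 peak the word CATTGT ended 1 base before the octamer. That arrangement was searched after the sequence was seen and was in 1 of the 1481 peaks. Sox9, a Sox factor of neural crest, glia and cartilage, was at 0.144, 0.210 and 2.90 FPKM in the control libraries of days 2, 4 and 6 and at 0.533, 0.713 and 1.87 in the induced ones.

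Lin28a, an RNA-binding protein of pluripotent cells, had a small and even difference of -0.68, -0.60 and -0.73 on the log2 scale at days 2, 4 and 6 (adjusted p in limma 0.0885). Twist1, a mesenchymal and neural crest factor that neighbours Hdac9 and has a peak of its own, was at 10.1, 15.03 and 14.6 FPKM in the induced libraries and at 1.58, 5.04 and 23.1 in the control.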
